A study of Neurospora crassa with 6 samples.

Results

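Among the 8992 nuclear genes of Neurospora crassa that do not lie wholly within 200 kb of a chromosome end, 562 genes (6.25%) were close to silent in a cac-1 single knockout. A gene was chosen when it had 10 counts or fewer in each of the 3 single-knockout libraries and at least 1 count over all 6 libraries. A chromosome end was base 1 or the outermost annotated base of the linkage group, and the count table held 9757 genes in all, of which 28 were mitochondrial and 737 lay near ends. The counts were RNA-seq read counts from mycelium from overnight cultures in Vogel's medium with sucrose. A cac-1, suz-12 double knockout (3 libraries) was set against the cac-1 knockout (3 libraries), so that every library lacks cac-1 and the strains differ by label at suz-12. A wild type was not analysed here, and the labels do not say whether the libraries came from separate cultures, so the spread between them may be partly technical. Because the genes were chosen by their single-knockout counts, such a gene could hardly be lower in the double knockout, and all differences between the strains at these genes are given as descriptions without a test.

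The gene suz-12 encodes a core subunit of Polycomb repressive complex 2, the enzyme complex that methylates lysine 27 of histone H3. In this fungus that mark covers facultative heterochromatin, stretches of mostly unexpressed genes that lie largely toward the chromosome ends but also occur inside the arms. The gene cac-1 encodes the large subunit of CAF-1, the chromatin assembly complex that places new histones behind the replication fork. A gene without transcripts in mycelium need not be under Polycomb control, since many genes of the asexual and sexual cycles are unexpressed for lack of an activator.

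Libraries of the double knockout held between 18993719 and 28327383 counts, against 7989915 to 25315143 in the single knockout, where replicate 1 was the shallowest. Levels are given as CPM, counts scaled by library totals and TMM factors. On that scale, 10 counts stood for 0.342 to 0.593 CPM in the double-knockout libraries, against 0.355 to 1.17 CPM in the single-knockout libraries. Of the member counts above 0, 80.6% were even numbers, and 1 count may therefore stand for less than a whole fragment. The deleted cac-1 (NCU04198) had 0 counts in all 6 libraries. NCU05460, used as the suz-12 locus although the count table does not name it, had 54, 70 and 55 counts in double-knockout replicates 1, 2 and 3, against 74, 207 and 197 in the single knockout, so counts remained at it. The mating-type genes matA-1, matA-2 and matA-3, which are members, had no counts in any single-knockout library, while counts were present in every double-knockout library. Of 6 conidiation markers con-6 was called higher and con-8 lower in the double knockout, with summed levels of 155 to 192 CPM, against 196 to 360 CPM in the single knockout. Of 7 sexual markers found, matA-1 and ccg-4 were called higher and poi-2 lower, while matA-2 and matA-3 were not tested. The choice of members favoured a higher call for matA-1. Both matA-1 and ccg-4 also go with the mat A mating type, so their calls are not read as sexual tissue. The sums were 1029 to 1743 CPM in the double and 1450 to 2928 CPM in the single knockout. Most of these sums was asd-1, which was not called, at 952 to 1649 CPM in the double and 1402 to 2883 CPM in the single knockout. The 4 housekeeping genes act, tub-2, tef-1 and gpd-1 were listed for mycelium but are not specific to it. They summed to between 18062 and 25144 CPM in the double and between 18451 and 20626 CPM in the single knockout, most of it gpd-1. The part of tissue makeup in the results below was not tested.

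At the limit of 10 counts, most of the 562 genes stayed near silent in the double knockout. With the same limit, 375 genes (66.7%) had 10 counts or fewer in each double-knockout library and are called silent here. Another 75 genes (13.3%) had more than 10 counts in each double-knockout library and are called appearing, and the remaining 112 (19.9%) passed the limit in 1 or 2 libraries and are called mixed. The silent majority depends on the limit: at 3 counts, 88 of 232 genes were silent, which is not a majority. The number of appearing genes rests partly on single-knockout replicate 2, the deepest of its strain: when it was left out of the choice, 143 of 688 genes appeared.

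**Figure D1:**
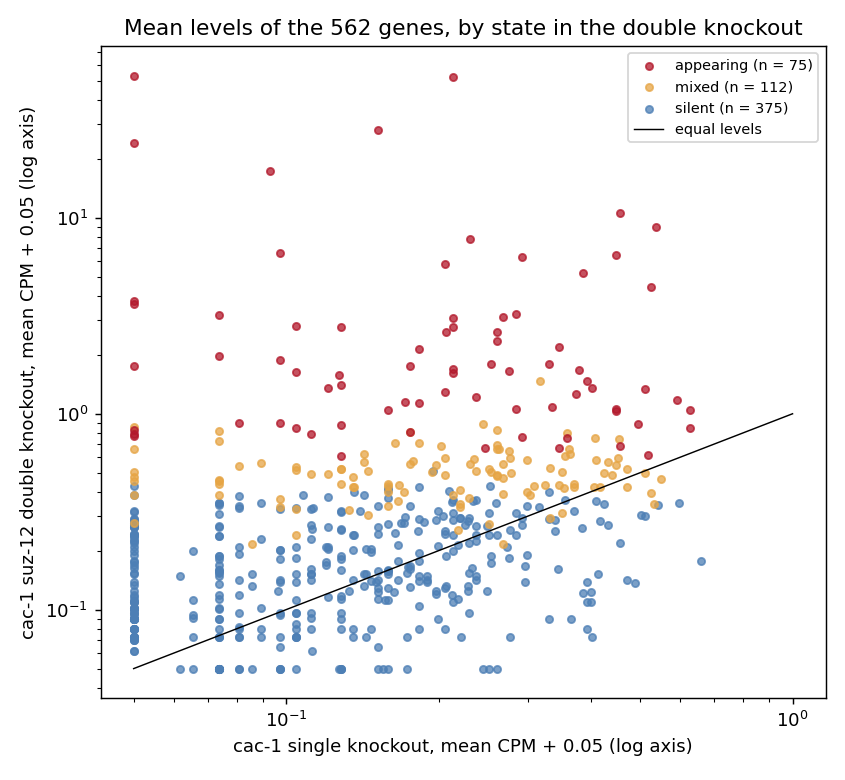
Mean CPM over 3 libraries of each of the 562 genes in the double knockout (vertical, log axis after adding 0.05) and in the single knockout (horizontal, log axis after adding 0.05), coloured by state, with the line of equal levels. Silent genes lie on both sides of the line, mixed genes mostly above it, and the 75 appearing genes reach 53.2 CPM in the double knockout while none exceeds 0.577 CPM in the single knockout.

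The appearing genes had a median level of 1.58 CPM in the double knockout (lowest 0.556, highest 53.2), against a median of 0.164 CPM in the single knockout (0 to 0.577). Most of them were weakly expressed: 54 reached a mean of 1 CPM in the double knockout, 13 reached 5 CPM and 4 reached 20 CPM. The 5 highest took 53.2% of all counts on appearing genes in the double knockout. For 70 of the 75 genes the lowest double-knockout library stood above the highest single-knockout library in CPM, an order that the choice favours. The ratio of the highest to the lowest double-knockout library was under 2 for 57 of the 75 genes, with a median of 1.64, a spread narrowed by the demand for more than 10 counts in every library, which placed genes with 1 low library among the mixed. Summed over all 562 genes, the level was 441, 365 and 478 CPM in double-knockout replicates 1, 2 and 3, against 82.7, 64.3 and 73.3 CPM in the single knockout. Without matA-1 the double-knockout sums were 388, 318 and 419 CPM.

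Part of the bias of the choice was measured in the data. With the strains exchanged, 449 interior genes had 10 counts or fewer in each double-knockout library, and 6 of them (1.34%) had more than 10 counts in every single-knockout library. That small number depends on the shallow single-knockout replicate 1, since 36 of 448 genes passed without it. After all libraries were thinned to the smallest total, 84 of 941 genes near silent in the single knockout (8.93%) appeared in the double knockout, and 30 of 869 genes near silent in the double knockout (3.45%) appeared in the single knockout. The 6 genes of the exchanged choice were NCU02735, NCU00781, NCU03541, NCU00208, NCU04751 and NCU05760, named after their values were seen, and each was under 1.60 CPM in the single knockout.

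A second measure held out 1 single-knockout library from the choice and asked how many genes exceeded 10 counts in it. Of the 703 interior genes near silent in single-knockout replicates 1 and 3, 229 (32.6%) exceeded 10 counts in double-knockout replicate 1, against 20.1% in the held-out single-knockout replicate 2, a library of nearly the same total. More than 50 counts were reached by 46 of these genes in that double-knockout library and by 1 gene in the held-out library. With single-knockout replicate 3 held out, 25.3% to 28.5% of 641 genes exceeded 10 counts in the double-knockout libraries, against 12.3% in the held-out library. With replicate 1 held out, the shallowest library, the shares were 20.7% to 23.2% of 564 genes in the double-knockout libraries, against 0.355% in the held-out library. The share passing 10 counts without a change of strain thus ran from 0.355% to 20.1%, and 2 genes at most had more than 50 counts in a held-out library. With thinned libraries the share over 10 counts was 15.2% to 19.9% in the double-knockout libraries, against 7.29% to 8.73% in the held-out single-knockout libraries. A held-out library is of the strain used for the choice, so it shows spread between libraries only. The bias from choosing genes low in that strain remains in the gap.

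**Figure D2:**
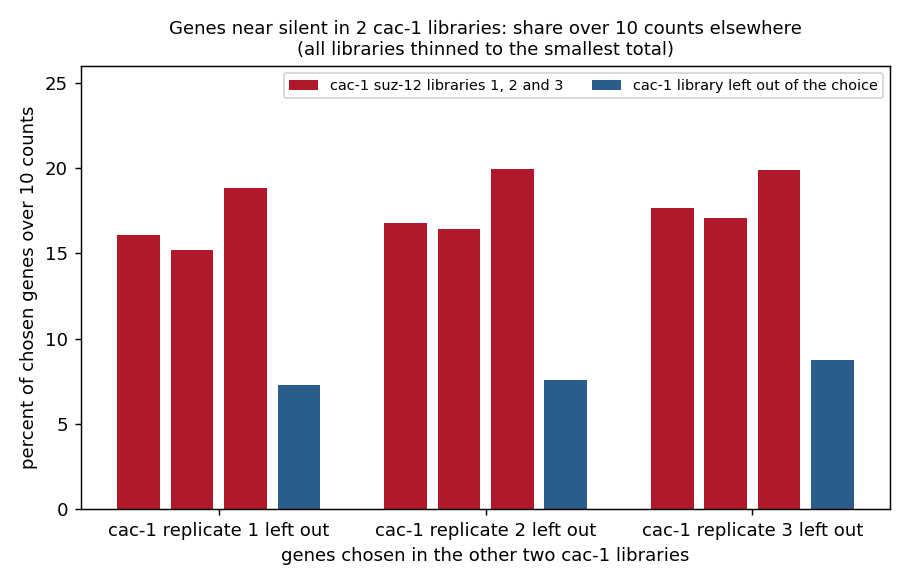
Percent of interior genes chosen as near silent in 2 single-knockout libraries that exceeded 10 counts in each double-knockout library (left 3 bars of each set) and in the single-knockout library left out of the choice (right bar), with all libraries thinned to the smallest total. The double-knockout bars lie between 15.2% and 19.9% and the held-out single-knockout bars between 7.29% and 8.73%.

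The table-wide test, edgeR's quasi-likelihood test with Benjamini-Hochberg adjustment over 9148 genes, could be run on few of these genes, as its filter on low counts removed 477 of the 562. Of the 85 that passed, 62 were called higher in the double knockout and 0 lower, where 16.1% of all genes tested were called higher and 11.9% lower. DESeq2 called 61 higher and 0 lower, and at an unadjusted edgeR p under 0.05 the numbers were 67 and 0. Since the choice used this contrast, and a member could pass the filter mainly through its double-knockout counts, nothing is read from that count. The called genes comprised 61 of the 75 appearing genes and 1 mixed gene, NCU05910, while 11 appearing genes were not called and 3 were not tested. None of the 375 silent genes was tested.

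Levels in the double knockout named the members described next, the 25 highest of the appearing genes, together with every member that carries a gene name. Mating-type genes come first. The matA-1 gene (NCU01958) lies on the plus strand of linkage group I, from 1860834 to 1861834, in 5 counted intervals, and encodes the mat A-1 transcription factor, which sets mating identity and also acts in vegetative incompatibility. Double-knockout replicates 1, 2 and 3 gave 1193, 1387 and 1000 counts and each single-knockout library 0, a level of 53.2 ± 5.90 CPM (SD, n = 3) in the double knockout. A floor of 3 counts bounds a count of 0 only if counts are independent. Most member counts above 0 were even, so folds over that floor may be overstated. Against it in the shallowest single-knockout library (0.351 CPM), matA-1 was 151-fold higher, and 383-fold higher with that library left out. Its neighbours on the same locus were far lower: matA-3 (NCU01960), a gene for a protein with a DNA-binding HMG box, had 32, 15 and 8 counts in the double knockout, and matA-2 (NCU01959), a gene of the same locus needed in the sexual cycle, had 10, 6 and 6, with 0 counts in every single-knockout library. By the limit matA-1 was appearing, matA-3 mixed and matA-2 silent.

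Strains of the mat A and mat a mating types carry unlike DNA at this locus, and the labels give no mating type. The pheromone precursor gene ccg-4 (NCU02500), used by mat A strains and not a member, stood at 8.11, 5.72 and 8.42 CPM in the double knockout, against 0.469, 0.427 and 0.371 CPM in the single knockout. The mat a pheromone precursor gene mfa-1 (NCU16992) stood at 14.0, 8.08 and 9.31 CPM in the double knockout, against 10.5, 12.7 and 12.6 CPM in the single knockout. Whether the locus is present in the single-knockout strain was not tested, so the counts of the 3 mat genes are not set down to suz-12.

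The other high members had no gene name in the count table or the RefSeq table, and no role is given for them. NCU05107 (linkage group VI, 3721795 to 3722380, plus strand, 2 counted intervals) had 1279, 1331 and 939 counts in the double knockout, against 0, 6 and 6 in the single knockout. Its level was 52.6 ± 6.13 CPM in the double and 0.164 ± 0.145 CPM in the single knockout (SD, n = 3 each). Per kilobase of counted length it was the highest of the 5, at 103 CPM per kb in the double knockout, against 59.99 for matA-1.

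NCU02866 (linkage group I, 8868382 to 8869135, minus strand) had 676, 637 and 547 counts in the double knockout, against 0, 6 and 2 in the single knockout. It averaged 28.1 ± 5.55 CPM in the double and 0.102 ± 0.107 CPM in the single knockout (SD, n = 3 each). It lies 903 kb from the right end of its linkage group, farther in than any other of the 25 except matA-1.

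NCU09966 (linkage group V, 6064588 to 6066000, minus strand) had 572, 710 and 385 counts in the double knockout and 0 in every single-knockout library. Its 3 double-knockout values were close, at 24.2 ± 1.27 CPM (SD, n = 3). NCU04918 (linkage group IV, 728617 to 731674, minus strand, 6 counted intervals) had 445, 322 and 361 counts in the double knockout, against 0, 1 and 2 in the single knockout. Its double-knockout mean was 17.4 ± 5.57 CPM (SD, n = 3), with the second library the lowest. No library of either strain overlapped the other at any of these 5 genes.

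**Figure D3:**
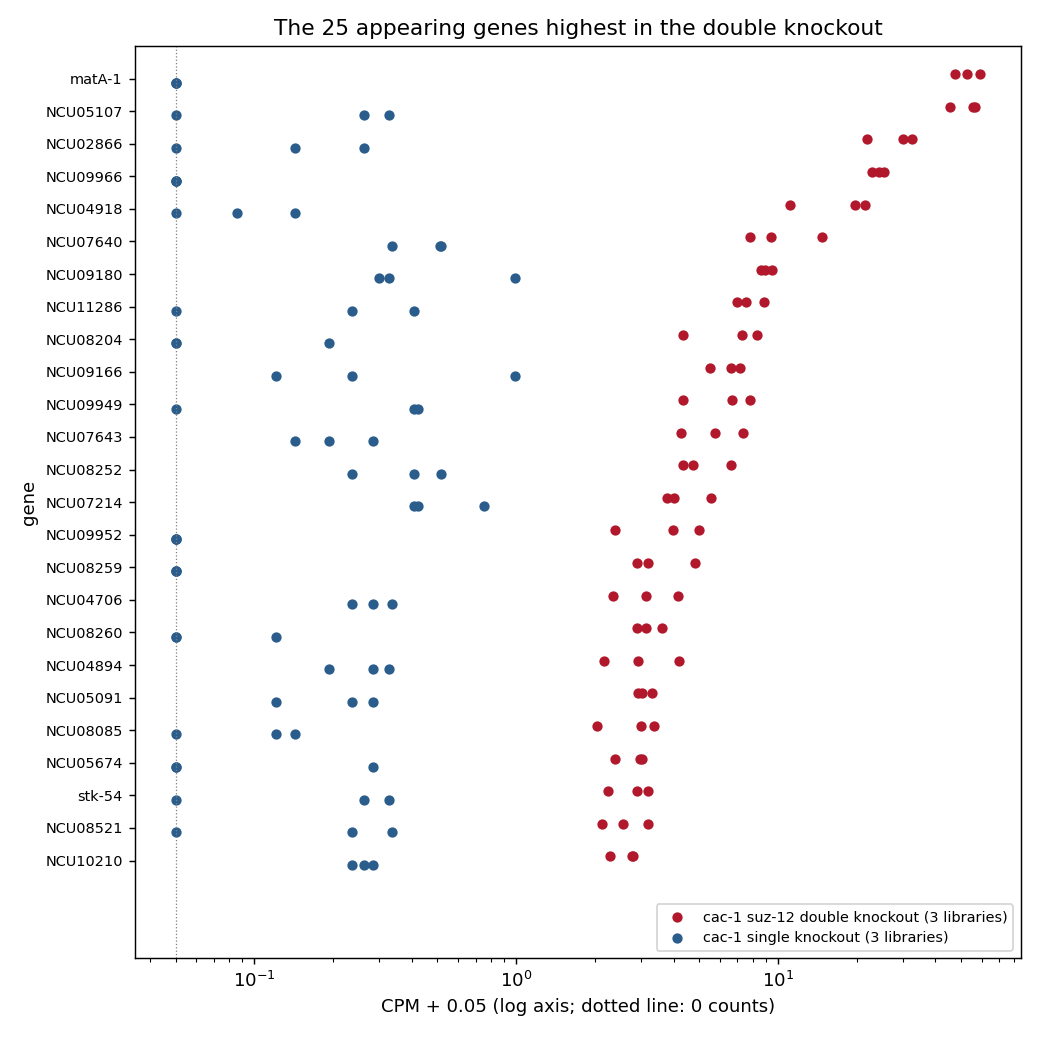
Level of the 25 appearing genes with the highest mean in the double knockout, each point 1 library, on a log axis of CPM after adding 0.05, with double-knockout points drawn above single-knockout points for each gene. Points on the dotted line have 0 counts, and all 3 single-knockout points of matA-1, NCU09966, NCU09952 and NCU08259 lie there.

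Below these 5 the levels fell off quickly. NCU07640 (linkage group IV) had 176, 273 and 247 counts in the double knockout, against 4, 8 and 10 in the single knockout. NCU09180 (linkage group III) had 214, 260 and 144 counts in the double knockout, against 8, 7 and 6. The remaining 18 of the 25 had mean levels from 2.57 CPM (NCU10210) to 7.76 CPM (NCU11286) in the double knockout, and they include NCU08204, NCU09166, NCU09949, NCU07643, NCU08252, NCU07214, NCU04706, NCU08260, NCU04894, NCU05091, NCU08085, NCU05674 and NCU08521. A pair of neighbours on linkage group III, NCU11286 (4631535 to 4633728, plus strand) and NCU08204 (4634182 to 4636013, minus strand), are convergent genes less than 1 kb apart. NCU11286 had 157, 257 and 127 counts in the double knockout, against 0, 10 and 4 in the single knockout. NCU08204 averaged 6.60 ± 2.08 CPM in the double and 0.0474 ± 0.0821 CPM in the single knockout (SD, n = 3 each), where 1 library held its 4 counts.

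Of the appearing genes 8 had no count in any single-knockout library. Besides matA-1 and NCU09966 these were NCU09952, NCU08259, NCU16704, NCU16307, NCU12044 and NCU08263. NCU09952 (linkage group V, 6032208 to 6032600) had 112, 68 and 66 counts in the double knockout. That was 10.6-fold over the floor, or 26.9-fold with single-knockout replicate 1 left out, with the same limit on the floor as for matA-1. NCU08259 (linkage group III, 4802863 to 4804759) stood at 3.58 ± 1.03 CPM (SD, n = 3), 10.2-fold over the floor, or 25.8-fold without that replicate. For NCU16704, NCU16307, NCU12044 and NCU08263 the fold over the floor ran from 2.05 (NCU08263) to 4.82 (NCU16704), or from 5.19 to 12.2 without that replicate. In all, 85 of the 562 genes had 0 counts in the single knockout, and 70 of those were silent in the double knockout as well.

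Only 7 of the 562 members (1.25%) carried a gene name in the count table, against 12.1% of all interior genes. Beyond the 3 mat genes these were a pair of kinase genes and a pair of glycoside hydrolase genes, and each pair was split between appearing and silent. The serine/threonine kinase gene stk-54 (NCU09189, linkage group III, 296535 to 298561) had 71, 83 and 37 counts in the double knockout, against 0, 6 and 6 in the single knockout, or 2.73 ± 0.487 CPM and 0.164 ± 0.145 CPM (SD, n = 3 each). The serine/threonine kinase gene stk-41 had 0 counts in every double-knockout library, against 0, 2 and 0 in the single knockout. The family 18 glycoside hydrolase gene gh18-1 (NCU04500, linkage group IV, 3163243 to 3164692), whose family includes chitinases, had 33, 27 and 15 counts in the double knockout, against 0, 9 and 1 in the single knockout. Its level was 1.09 ± 0.321 CPM in the double knockout and 0.122 ± 0.173 CPM in the single knockout (SD, n = 3 each), with no overlap of the libraries in CPM. The family 7 gene gh7-3, whose family includes cellulases, had 2 counts in each double-knockout library, against 0, 8 and 6 in the single knockout, and stayed silent.

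The appearing genes were spread unevenly over the linkage groups. Linkage group III held 26 of the 75 appearing genes (34.7%), with 19.9% of the members, 18.1% of the silent genes and 12.9% of the interior genes. On it 23.2% of members appeared, against 7.50% on linkage group II, the lowest share. Linkage group III also had many members within 800 kb of an end, 25 on its left and 54 on its right side. Linkage group I had 14 and 2, and linkage group II 9 and 5. The shares by linkage group were not separated from distance to an end. Linkage groups V, I and IV held 12, 11 and 10 appearing genes, and VI, VII and II held 8, 5 and 3. Silent genes were found on all 7 linkage groups, from 29 on II to 69 on IV.

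**Figure D4:**
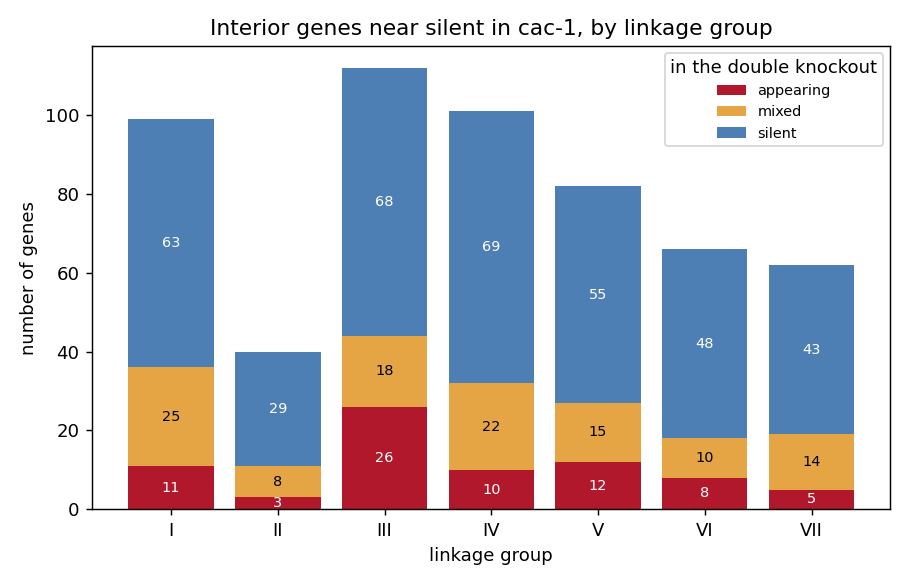
Number of appearing, mixed and silent genes on each linkage group, as stacked bars from 0. Linkage group III has the most appearing genes (26) and linkage group II the fewest (3), while the silent genes run from 29 to 69 per linkage group.

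Appearing genes lay closer to the chromosome ends than silent genes, although every gene near an end had been left out. The median distance to the nearest end was 465 kb for the 75 appearing genes (quartiles 372 and 896 kb), 1033 kb for the mixed genes and 1243 kb for the 375 silent genes (quartiles 529 and 1872 kb), with 1583 kb for all interior genes. Within 800 kb of an end, a distance set after the values were seen, 55 of 240 members appeared (22.9%), and farther in 20 of 322 (6.21%), shares for which no error is given, since neighbouring genes are not independent. Without single-knockout replicate 2 the shares were 31.8% and 12.3%. Read outward, the share appearing was 5.86% beyond 1200 kb, 7.58% from 800 to 1200 kb, 19.4% from 600 to 800 kb, 20.9% from 400 to 600 kb and 27.8% from 200 to 400 kb. Among the 60 genes near ends that met the same count limits, 24 appeared (40.0%) and 21 were silent. The rise was not even. Of 31 genes at 100 to 200 kb that met the count limits, 2 of them interior by the rule, 25.8% appeared. Of 31 within 100 kb, 51.6% did.

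**Figure D5:**
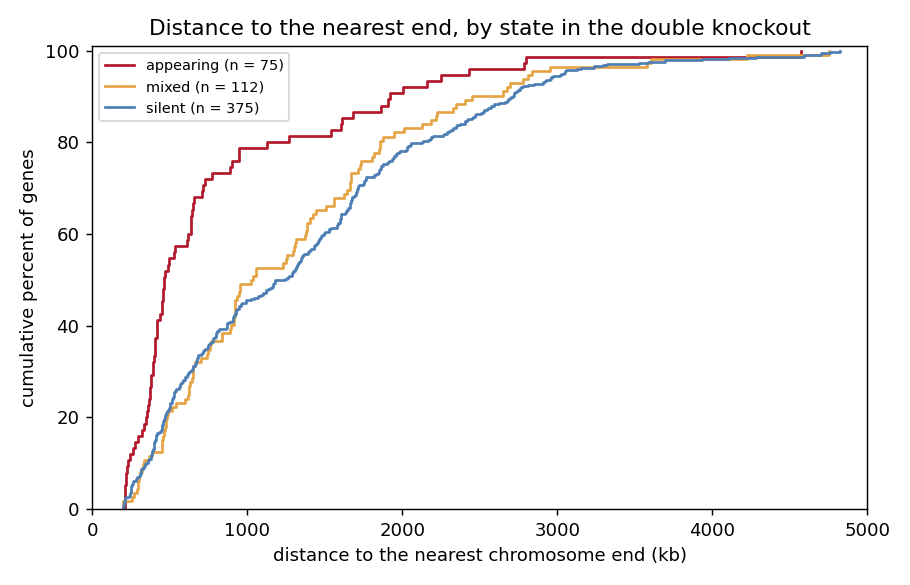
Cumulative percent of the 75 appearing, 112 mixed and 375 silent genes by distance to the nearest chromosome end in kb. The appearing curve rises earliest, with a median of 465 kb, while the curves of mixed genes (median 1033 kb) and silent genes (median 1243 kb) stay close to each other.

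Counts are also given by the nearer end of each linkage group. The right side of linkage group III held 15 appearing genes, 14 of them within 800 kb of the end, where 54 of its 70 members lay. Its left side held 11, of which 8 lay within 800 kb, as did 25 of its 42 members. All 9 appearing genes on the left side of linkage group IV lay within 800 kb of that end, as did 38 of the 59 members there. The right side of linkage group IV held 1 appearing gene among 42 members, of which 6 lay within 800 kb of the end. The right side of linkage group II had 17 members, none of which appeared.

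Runs of at least 3 appearing genes, each no more than 20 kb from the next, numbered 5 and held 24 of the 75 appearing genes. The first, on linkage group III from 4778023 to 4820221, held NCU08250, NCU08252, NCU08259, NCU08260, NCU16704 and NCU08263. Of the 16 genes in this span 13 were near silent in the single knockout, and 5 of those stayed silent and 2 were mixed in the double knockout. The second, on linkage group IV from 323849 to 379563, held NCU07629, NCU07632, NCU07636, NCU07640, NCU07642 and NCU07643, at levels from 0.556 CPM (NCU07642) to 10.6 CPM (NCU07640) in the double knockout. The third, on linkage group V from 6027730 to 6066000, held NCU09949, NCU09952, NCU09957, NCU09965 and NCU09966. NCU09965 and NCU09966 are adjacent on the minus strand, yet NCU09965 had 65, 30 and 43 counts in the double knockout, against 4, 0 and 9 in the single knockout, far fewer than its neighbour. The other runs held 4 genes on linkage group I, 209 kb from the left end, and 3 genes on linkage group VI. The number of runs was 13, with 65 appearing genes, when single-knockout replicate 2 was left out of the choice.

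On linkage group I the run held NCU08083, NCU08085, NCU08086 and NCU08087 among the 5 genes of its 12.1 kb span. NCU08085 was its highest gene, with 45, 86 and 56 counts in the double knockout, against 0, 2 and 2 in the single knockout. NCU08086 had 33, 47 and 45 counts in the double knockout, against 0, 2 and 0. The edge genes stood much closer between the strains, NCU08083 with 18, 27 and 22 counts in the double knockout, against 6 in each single-knockout library, and NCU08087 with 15, 12 and 14, against 4, 8 and 10. On linkage group VI the run, from 3742847 to 3766529, held NCU05100, NCU05099 and NCU05091, with means of 1.75, 0.845 and 3.04 CPM in the double knockout, against 0.280, 0.0309 and 0.164 CPM in the single knockout. The highest of the unnamed left-side genes on linkage group III, NCU09180 and NCU09166, lay in no run, at 273675 to 274366 and 228016 to 229458.

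In and beside these runs, appearing genes lay next to mixed ones. NCU07629 had 18, 22 and 14 counts in the double knockout, against 0, 2 and 2 in the single knockout, and the neighbouring NCU07630 had 8, 12 and 4, against 0 in every single-knockout library. NCU08263 had 12, 20 and 16 counts in the double knockout, while NCU08264, which starts less than 1 kb beyond it, had 4, 6 and 14, both against 0 counts in the single knockout. In CPM, NCU07629 was at 0.794 ± 0.0384 and NCU07630 at 0.334 ± 0.0887 in the double knockout (SD, n = 3), with no overlap of the libraries. NCU08263 was at 0.722 ± 0.211 CPM and NCU08264 at 0.404 ± 0.369 CPM in the double knockout (SD, n = 3), and the libraries of these genes overlapped.

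Genes next to appearing members that were not members themselves were examined as well. Of 88 such neighbours tested, 52 (59.1%) were called higher and 3 (3.41%) lower in the double knockout (edgeR's quasi-likelihood test), with a median log2 fold change of 1.02. Among all interior genes tested 14.2% were called higher, and 26.3% among those within 800 kb of an end. These background shares cover interior genes only and include members. The neighbours exclude members but could lie near an end, and a gene beside both appearing and silent members was counted in both sets. Neighbours of silent members came out near the interior background, with 92 of 533 (17.3%) called higher and a median log2 fold change of 0.017. Neighbours that were members, 51 of the 150 positions beside appearing genes and 186 of the 750 beside silent ones, were left out, so the neighbours kept were filtered on their own single-knockout counts and share the libraries with the choice. The difference between these shares was not tested.

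Of the 20 appearing genes 800 kb or more from an end, matA-1, NCU02866 and NCU05529 were the highest. NCU05529 (linkage group VI, 1606164 to 1606400, 1 counted interval) had 59, 31 and 54 counts in the double knockout, against 4, 2 and 2 in the single knockout, and the widest spread between double-knockout libraries of all appearing genes, with a ratio of 3.02. NCU05466 (linkage group II, 1680517 to 1682564) lies 4.74 kb from the locus taken as suz-12. Its counts were 30, 24 and 23 in the double knockout, against 2, 4 and 4 in the single knockout, or 1.17 ± 0.303 CPM and 0.187 ± 0.0461 CPM (SD, n = 3 each). The other 4 members within 50 kb of that locus were mixed (NCU05437 and NCU05481) or silent (NCU05480 and NCU10369). No member lay within 50 kb of cac-1. Whether the deletion next to NCU05466 bears on its counts was not tested.

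Mixed genes depended on single libraries. Of the 112, 75 passed 10 counts in 1 double-knockout library and 37 in 2. Their median level was 0.440 CPM in the double and 0.171 CPM in the single knockout, where 10 counts stood for 0.342 CPM in the deepest double-knockout library and 0.355 CPM in the deepest single-knockout library. The highest was NCU09586 (linkage group VII, 917315 to 918638), with 44, 10 and 33 counts in the double knockout, against 3, 10 and 2 in the single knockout.

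The silent genes were almost empty in both strains, with a median of 0.102 CPM in the double and 0.0711 CPM in the single knockout. Of all 562 members 30 had 0 counts in the double knockout, and 137 had 3 counts or fewer in each of its libraries. Their genes were short, with a median counted length of 459 bp for silent genes, 578 bp for mixed genes and 909 bp for appearing genes, against 1269 bp for all interior genes. A shorter gene takes fewer counts at the same level, so length is not independent of the choice. No appearing gene overlapped another gene of the table, and 8 of the 375 silent genes did. The strand setting of the counting is not stated. Strand was even, with 52.0% of appearing genes and 50.3% of interior genes on the plus strand.

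At the limit itself, a difference of a few counts decided membership. Among the 70 members whose largest single-knockout count was 9 or 10, 20 appeared, and of the 78 interior genes just outside, with a largest count of 11 or 12, 28 had more than 10 counts in every double-knockout library. Just outside lay NCU09855 (linkage group V, 5968748 to 5969817), with 264, 166 and 214 counts in the double knockout, against 11, 8 and 6 in the single knockout, so the limit left out a gene with a level of 10.02 CPM in the double knockout. NCU09591, NCU07676, NCU07614 and NCU02029 were the next outside, each with 11 counts in 1 single-knockout library. Just inside, NCU07640, NCU11286, NCU09949, NCU08252 and NCU07214 each had 10 counts in 1 single-knockout library and appeared. The genes named on both sides are not typical of the limit, since ties were broken by double-knockout level. Those inside were the highest of 51 members with a largest count of 10, and those outside the highest of 14 genes at 11.

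The 5 members highest in the single knockout were NCU01987, NCU00746, NCU16618, NCU02593 and NCU06236. NCU01987 (linkage group I) had 0.128 ± 0.133 CPM in the double and 0.609 ± 0.489 CPM in the single knockout (SD, n = 3 each), the highest single-knockout level of all members. NCU00746 had 12, 20 and 20 counts in the double knockout, against 9, 6 and 10 in the single knockout, and counted as appearing. In CPM these values were 0.801 ± 0.342 and 0.577 ± 0.432 (SD, n = 3 each), less apart than the spread between libraries. NCU16618 had 0.991 CPM in the double knockout, against 0.577 CPM in the single knockout, and NCU02593 had 0.298 CPM, against 0.547 CPM. NCU06236 had 1.12 CPM in the double and 0.543 CPM in the single knockout.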

How the data were processed

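RNA-seq libraries of Neurospora crassa mycelium (3 cac-1 suz-12 double knockout, 3 cac-1 single knockout) were analysed from a deposited table of raw counts per gene, 1 alignment file per column per the file headers. Trim Galore 0.6.10, STAR 2.7.11, SAMtools 1.21, Subread 2.0.6 and featureCounts are listed, without roles, per the submitters' processing notes. The genome build and the strand setting are not given in the sources used here. Coordinates are as in the deposited table, and linkage groups and locus numbers came from matching 9723 of 9757 genes to the RefSeq table of the NC12 assembly. The table's 36 further count columns fit no sample label and were left out.

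The members and gene lists were chosen with earlier results of these data known. Levels are CPM, counts divided by library totals times TMM factors. The fit of the double against the single knockout used edgeR 4.0.16 in R 4.3.3 (filterByExpr, TMM, robust quasi-likelihood, no replicate block, called at a Benjamini-Hochberg adjusted p under 0.05), with DESeq2 1.42.0 as an alternative, and was tested on simulated data. Thinning drew 7989915 counts per library without replacement. Named genes were the 25 appearing members highest in the double knockout, members with gene names, members of the 3 longest runs, genes beside the count limit, the 5 members highest in the single knockout and the deleted loci. Ties beside the count limit were broken by double-knockout level. Others named were chosen after their values were seen. The product groups planned were not made, since the tables used hold no product descriptions, and no sequences were used. Floors cover counting error only, and only where counts are independent, as no molecular identifiers are described.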

Additional observations from a re-analysis of the deposited data

How the results depend on the processing

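The number of members, 562, was 232 at a limit of 3 counts and 941 on thinned counts, and silent members were 88 at 3 counts, 625 at 20 counts and 723 on thinned counts. Appearing members ranged from 51 at a limit of 3 counts to 98 at 20 counts. They ran from 76 to 143 with 1 library left out, the highest without single-knockout replicate 2, against 75 with all libraries. Leaving out a library only loosens the limits, so this number could not fall. The same holds for the exchanged choice and for the number of genes in runs given below. The share appearing within 800 kb of an end was 30.0% at 3 counts and 17.4% on thinned counts, and farther in 13.4% and 3.05%. With 1 library left out these shares ran from 23.3% to 31.8% and from 6.19% to 12.3%, so the share within 800 kb was the higher one under each alternative run. With the strains exchanged, 12 genes appeared at 0.5 CPM and 30 of 869 on thinned counts, and 6 to 36 with 1 library left out. Genes near ends chosen numbered 31 at 100 kb and 105 at 300 kb. A gap of 10 kb gave 2 runs with 8 genes and a gap of 50 kb put 38 genes in runs. With 1 library left out there were 5 to 13 runs with 24 to 65 genes. Leaving out members that overlap another gene, an alternative chosen after seeing the data like the 800 kb split, kept 553 members and 75 appearing.

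Members called higher numbered 62 with TMM, library totals, RLE factors or the replicate block, 61 with DESeq2, 85 with no filter and, by construction, 0 where 10 counts were required in every library. They were 61 to 76 with 1 library left out. With no filter all 562 members were tested, and 1 was called lower. The replicate block gave 3009 calls over the whole table, against 2569. Same-numbered libraries deviated with correlations of -0.015, 0.0972 and 0.173, and not every library correlated best with its own number. Lower calls over all genes were 1861 on library totals, which moved the median of all genes to -0.20 on the log2 scale, and 650 to 1139 with 1 library left out. The 287 log2 fold changes of the 25 highest appearing genes and the suz-12 locus that could be fitted with other settings did not change sign or cross the threshold. The 25 genes were chosen for low single-knockout and high double-knockout counts, which made that outcome likely beforehand, so nothing is read from it for them. Depth limits all states, since 10 counts in the shallowest library stand for 1.17 CPM.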
